A study of Mus musculus with 8 samples.

Results

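The matrix metalloproteinases (MMPs) and the ADAMTS proteases (a disintegrin and metalloproteinase with thrombospondin motifs) were followed across 8 RNA-seq libraries of mouse astrocytes, the glial cells that supply much of the brain's extracellular matrix. Members were all genes of the deposited TPM table (a transcript abundance scaled to transcript length and to a fixed library total) whose symbol is Mmp or Adamts followed by a number and at most 1 letter. Among its 23401 genes 42 had such a symbol, 23 Mmp and 19 Adamts genes. Of these 30 (14 Mmp and 16 Adamts genes) reached 1 TPM in at least 2 of the 8 libraries and were kept. The astrocytes were grown either in MGS, an abbreviation that the labels do not spell out, or by the conventional method (CV), and total RNA was taken at day 5 or day 32. Each of the 4 combinations has 2 libraries. In the sample descriptions MGS appears as Soft and CV as Hard. No strain, age, sex or allele is given for any group, all 4 groups carry the same cell type label, and nothing says whether the libraries of a group came from separate cultures or animals. All p-values below are therefore set against a spread that may be technical, that between the 2 libraries of a group, pooled over the 4 groups.

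Both families are zinc-dependent endopeptidases that are made as inactive proforms and cut matrix and cell-surface proteins. MMPs include collagenases, gelatinases, stromelysins and membrane-anchored enzymes, whereas ADAMTS proteases mainly cut proteoglycans such as aggrecan and versican, trim procollagens or act on microfibrils. In brain their substrates include the lecticans of the perineuronal matrix, and their activity is held in check by the tissue inhibitors of metalloproteinases (TIMPs). Transcript levels, the quantity measured here, do not report activation or inhibition of the enzymes.

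Aligned sequence summed to between 2.15 and 4.69 gigabases per library, lowest in the second CV library of day 32, and 12912 to 14441 genes reached 1 TPM in a library. The spread between replicates was widest in CV at day 32, where the log2 difference within the pair had an SD of 0.465 across genes, against 0.191 in MGS at day 5, 0.321 in CV at day 5 and 0.197 in MGS at day 32. The tests below use a spread pooled over all 4 groups and do not allow for this inequality. In CV at day 32 the second library was above the first for 26 of the 30 members (86.7%) and for 76.8% of all genes tested. Astrocyte markers summed to 15585 and 15669 TPM in MGS and 3206 and 3343 TPM in CV at day 5, and to 12321 and 12384 TPM in MGS and 1405 and 1785 TPM in CV at day 32, and each of the 8 markers was above 0 in all 4 groups. Gfap, an astrocyte intermediate filament protein, made up most of the MGS sums, with 13723 and 13744 TPM in MGS and 1657 and 1540 TPM in CV at day 5. At day 5, 4 of the 8 markers were called higher in MGS and 1 lower, and at day 32 they were 7 and 1. The lower one at day 5 and day 32 was Aldh1l1, with 257 and 251 TPM in MGS and 429 and 391 TPM in CV at day 5. Markers of other cell types moved with the groups as well. The 12 microglia and macrophage markers summed to 954 to 977 TPM in MGS and 55.1 to 56.1 TPM in CV at day 5, and to 1211 to 1236 TPM in MGS and 14145 to 15583 TPM in CV at day 32. The 10 meningeal fibroblast markers summed to 5775 to 5927 TPM and 3257 to 3299 TPM in MGS at day 5 and day 32, against 330.3 to 351 TPM and 326 to 493 TPM in CV. The 7 ependymal and choroid plexus markers, all called higher in MGS at both days, summed to 12903 to 17309 TPM in MGS and 292 to 319 TPM in CV at day 5, and to 2990.4 to 2993 TPM and 323 to 329 TPM at day 32. Oligodendrocyte markers summed to 498 to 617 TPM over the 4 MGS libraries and 104 to 161 TPM over the 4 CV libraries. Endothelial markers summed to 149.9 to 215 TPM and 12.7 to 36.4 TPM, and mural markers to 131 to 199 TPM and 25.2 to 56.3 TPM, in the same order. The oligodendrocyte precursor marker sum was lower in MGS at day 5, at 286 to 296 TPM against 629 to 687 TPM in CV. By gene, however, 3 of these 6 markers were called higher in MGS and 2 lower at day 5. At day 32 the markers summed to 422 to 464 TPM in MGS and 382 to 408 TPM in CV, with 5 called higher and 1 lower. The shares of all genes called at each day are given below. Neuron markers summed to 72.4 to 77.7 TPM in MGS and 84.3 to 114 TPM in CV at day 5. At day 32 these were 126 to 127 TPM in MGS and 40.6 to 54.6 TPM in CV. Of 7 neutrophil markers found in the files, 7 were listed at 0 in both CV libraries of day 5, 4 in both MGS libraries of day 5 and 6 in both libraries of each day 32 group, and their sum did not exceed 1.09 TPM. The part of these other cell types in the results below was not tested, and in bulk RNA fewer cells of a type and less RNA per cell cannot be told apart.

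As a family, the proteases were more abundant in MGS than in CV at both days. The 30 members summed to 1031 and 1017 TPM in MGS and 687 and 713 TPM in CV at day 5, and to 986 and 1022 TPM in MGS and 296 and 394 TPM in CV at day 32. Mmp14 was the most abundant member in every library and made up 30.2% to 51.4% of the sum. Without it the sums were 607 and 602 TPM against 334 and 380 TPM at day 5, and 681 and 713 TPM against 187 and 260 TPM at day 32. The groups did not overlap in either sum.

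At day 5, 17 of the 30 members were higher in MGS, 5 were lower and 8 did not pass the test (limma on log2(TPM + 1), with an adjusted p under 0.05 over 14904 genes). The background was wide: 48.9% of all genes tested were called at day 5, 22.5% higher and 26.4% lower. At day 32, 24 members were higher in MGS, 3 were lower and 3 did not pass, while 67.6% of all genes were called, 52.8% higher and 14.8% lower. The median log2 fold change of the members was 1.20 at day 5 against -0.14 over all genes tested, and 1.53 at day 32 against 0.56. Of the 14 Mmp genes 8 were higher and 2 lower at day 5, and 10 higher and 3 lower at day 32. Of the 16 Adamts genes 9 were higher and 3 lower at day 5, and 14 were higher and none lower at day 32. Over FPKM and the 3 other scalings tried, 17 to 20 members were higher and 5 or 6 lower at day 5, and 18 to 23 were higher and 4 to 6 lower at day 32. Because 13 of the 30 members fell below 1 TPM in at least 1 library, and Adamts17, Adamts20, Mmp13, Mmp24 and Mmp9 passed the level rule through MGS libraries alone, these counts describe the kept members and not the families. Among the 17 members with at least 1 TPM in all 8 libraries, 7 were higher and 3 lower at day 5, and 13 were higher and 1 lower at day 32.

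**Figure D1:**
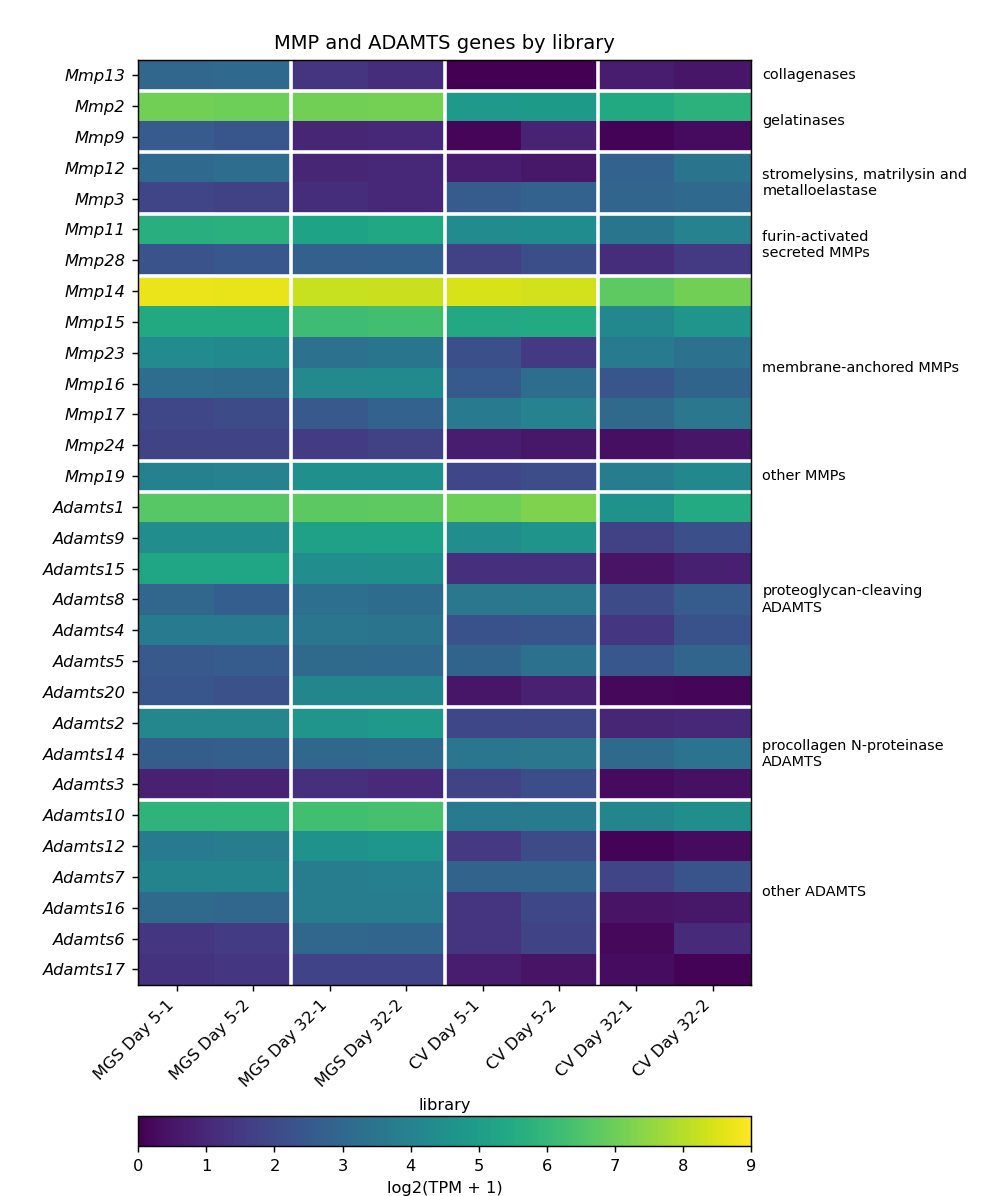
Level of each of the 30 kept members (rows) in each of the 8 libraries (columns, grouped by culture and day), as log2(TPM + 1) on the colour scale. Mmp14 has the highest level in all 8 libraries, and Adamts12, Adamts2, Adamts20 and Adamts16 are darkest (lowest) in the 2 CV libraries of day 32.

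The size of the day 32 difference depended on the scaling. The median gene differed by 0.56 (log2) between the cultures at day 32 in TPM but by -0.0029 after median-of-ratios scaling, and 7862 genes higher and 2213 lower became 5225 higher and 5197 lower. The median of the difference between the days moved likewise, from 0.65 to -0.068. Of the 22 members called at day 5, 21 kept their direction and call under 4 other scalings: FPKM (fragments per kilobase and library depth), median-of-ratios, quantile normalization, and a correction for length and GC of the transcript. The exception was Adamts17, whose log2 fold change fell to 0.27 after quantile normalization (limma adjusted p = 0.137). Of the 27 called at day 32, 21 kept theirs, and the exceptions were Adamts17, Adamts3, Adamts8, Mmp13, Mmp19 and Mmp9.

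The gelatinases and membrane-anchored enzymes include Mmp14, the most abundant member. Mmp14 (chr14:54431604-54441258, plus strand, mm10), a membrane collagenase that also activates the proform of Mmp2, held 424 and 415 TPM in MGS and 353 and 334 TPM in CV at day 5. By day 32 Mmp14 stood at 305 and 309 TPM in MGS and 109 and 134 TPM in CV. MGS and CV differed little at day 5 and did not overlap at either day. Its log2 fold change was 0.29 (SE 0.11, limma adjusted p = 0.0715) at day 5, not called, and 1.34 (limma adjusted p = 5.1e-05) at day 32, and Mmp14 passed the test at day 5 in FPKM and with median-of-ratios scaling or quantile normalization. Mmp2 (chr8:92827328-92853420, plus strand), gelatinase A, which digests denatured collagen and basement membrane, held 134 and 129 TPM in MGS and 28.3 and 29.2 TPM in CV at day 5. By day 32 Mmp2 stood at 134 and 138 TPM in MGS and 42.9 and 53.9 TPM in CV. All 4 MGS libraries lay close together and above all 4 CV libraries. Mmp2 had log2 fold changes of 2.16 (SE 0.13, limma adjusted p = 1.3e-05) at day 5 and 1.48 (limma adjusted p = 5.37e-05) at day 32. Gelatinase B, Mmp9, was far scarcer, with 5.03 and 4.27 TPM in MGS and 0.121 and 0.862 TPM in CV at day 5. By day 32 Mmp9 stood at 0.963 and 0.992 TPM in MGS and 0.0552 and 0.201 TPM in CV. Both MGS libraries of day 5 were above the other 6. Mmp9 had log2 fold changes of 1.96 (SE 0.23, limma adjusted p = 0.000355) at day 5 and 0.81 (limma adjusted p = 0.0153) at day 32. The day 32 call of Mmp9 was lost without the first or second MGS library or the first CV library of that day (limma adjusted p from 0.0622 to 0.0681) and with the length and GC correction (0.381).

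Of the 6 membrane-anchored members, 2 were higher and 1 lower at day 5, and 4 were higher and 1 lower at day 32. This count and those of the other subsets below stand beside 22.5% of all genes called higher and 26.4% lower at day 5. At day 32 these shares were 52.8% and 14.8%. Mmp15, a transmembrane MMP, held 43.6 and 43.6 TPM in MGS and 42.5 and 44.2 TPM in CV at day 5. By day 32 Mmp15 stood at 72.0 and 77.4 TPM in MGS and 17.3 and 24.7 TPM in CV. The cultures overlapped at day 5, and by day 32 Mmp15 had risen in MGS and fallen in CV. Mmp15 had log2 fold changes of 0.0088 (SE 0.17, limma adjusted p = 0.97) at day 5 and 1.80 (limma adjusted p = 7.9e-05) at day 32. Mmp16, a transmembrane enzyme of the same subgroup, held 8.44 and 8.11 TPM in MGS and 4.81 and 8.46 TPM in CV at day 5. By day 32 Mmp16 stood at 18.1 and 18.2 TPM in MGS and 4.26 and 6.44 TPM in CV. Here too the cultures overlapped at day 5 only. Mmp16 had log2 fold changes of 0.32 (SE 0.26, limma adjusted p = 0.34) at day 5 and 1.61 (limma adjusted p = 0.00138) at day 32. The related Mmp24, known mainly from neurons, held 2.56 and 2.62 TPM in MGS and 0.617 and 0.484 TPM in CV at day 5. By day 32 Mmp24 stood at 2.05 and 2.44 TPM in MGS and 0.282 and 0.460 TPM in CV, higher in MGS at both days. Mmp24 had log2 fold changes of 1.21 (SE 0.13, limma adjusted p = 0.000216) at day 5 and 1.24 (limma adjusted p = 0.000131) at day 32. Its gene overlaps BC029722 on the opposite strand by 635 bases, and since BC029722 stood at 49.7 to 106 TPM and the use of strand in counting is not given in the sources used here, part of the Mmp24 reads could belong to the other gene. Mmp17, which is tethered by a lipid anchor and not by a transmembrane segment, went the other way, with 2.77 and 3.13 TPM in MGS and 12.4 and 14.8 TPM in CV at day 5. By day 32 Mmp17 stood at 4.73 and 6.13 TPM in MGS and 7.652 and 10.8 TPM in CV. Mmp17 had log2 fold changes of -1.88 (SE 0.21, limma adjusted p = 0.000288) at day 5 and -0.66 (limma adjusted p = 0.0257) at day 32. Its day 32 call was lost without any one of 5 libraries, both MGS libraries of day 5, both MGS libraries of day 32 and the second CV library of day 32 (limma adjusted p from 0.0501 to 0.172). Mmp23, an enzyme with an N-terminal membrane anchor, held 19.5 and 18.6 TPM in MGS and 3.63 and 1.85 TPM in CV at day 5. By day 32 Mmp23 stood at 9.16 and 10.4 TPM in MGS and 12.5 and 9.61 TPM in CV. The cultures were apart at day 5 and overlapped at day 32. Mmp23 had log2 fold changes of 2.46 (SE 0.25, limma adjusted p = 0.000181) at day 5 and -0.16 (limma adjusted p = 0.597) at day 32.

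**Figure D2:**
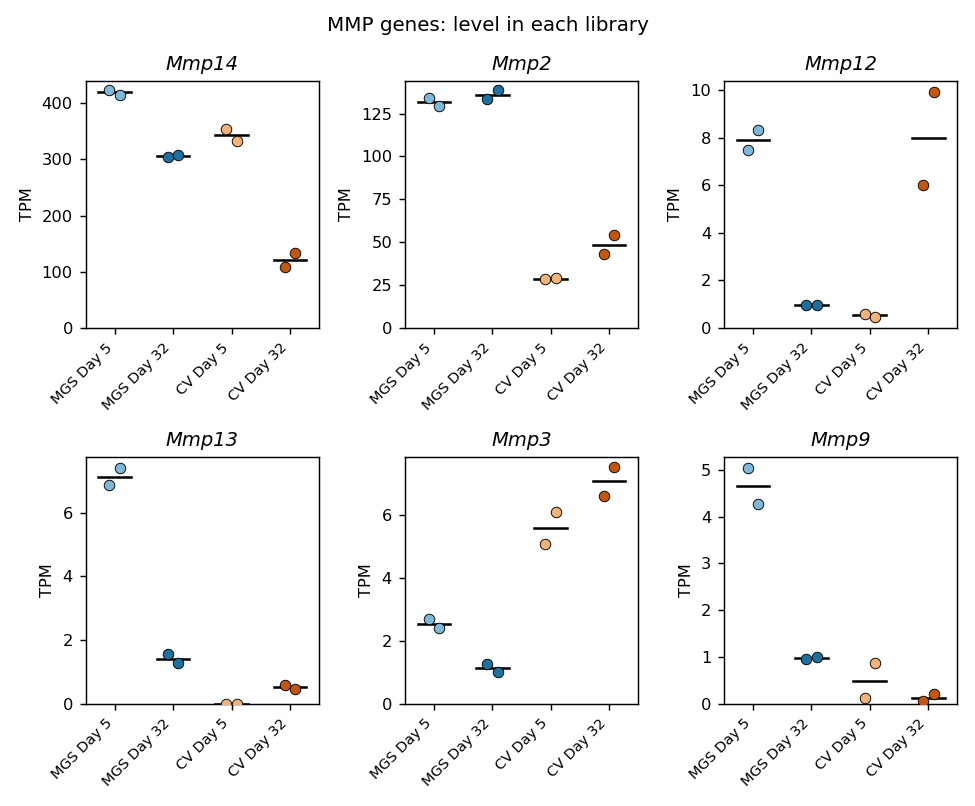
TPM of 6 Mmp members in each library (points, linear axis from 0) with the mean of the 2 libraries of a group (line), by culture and day. Mmp14 is at 353 and 334 TPM in CV at day 5 and at 109 and 134 TPM at day 32, and Mmp12 is high in MGS at day 5 and in CV at day 32.

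Among the secreted members, Mmp11, a stromelysin that furin activates inside the cell, held 49.7 and 51.2 TPM in MGS and 19.2 and 19.6 TPM in CV at day 5. By day 32 Mmp11 stood at 36.0 and 41.4 TPM in MGS and 10.2 and 14.9 TPM in CV, higher in MGS at both days. Mmp11 had log2 fold changes of 1.34 (SE 0.18, limma adjusted p = 0.000778) at day 5 and 1.57 (limma adjusted p = 0.00024) at day 32. Mmp28, or epilysin, held 3.99 and 4.39 TPM in MGS and 2.45 and 3.44 TPM in CV at day 5. By day 32 Mmp28 stood at 5.70 and 5.95 TPM in MGS and 1.25 and 1.91 TPM in CV. Mmp28 had log2 fold changes of 0.41 (SE 0.19, limma adjusted p = 0.112) at day 5 and 1.41 (limma adjusted p = 0.000493) at day 32. Mmp19, a secreted MMP that cuts basement membrane components, held 14.6 and 14.8 TPM in MGS and 2.76 and 3.35 TPM in CV at day 5. By day 32 Mmp19 stood at 22.2 and 21.7 TPM in MGS and 12.8 and 17.2 TPM in CV. The gap between the cultures was wide at day 5 and narrow at day 32. Mmp19 had log2 fold changes of 1.96 (SE 0.18, limma adjusted p = 0.000112) at day 5 and 0.53 (limma adjusted p = 0.0321) at day 32. The day 32 difference of Mmp19 did not pass in FPKM (log2 fold change 0.16, limma adjusted p = 0.242), was -0.068 after median-of-ratios scaling and -0.23 after quantile normalization, and lost its call without any one of 5 libraries (limma adjusted p from 0.0698 to 0.142), both MGS libraries of each day and the first CV library of day 32. Mmp19 also overlaps Tmem198b on the opposite strand by 789 bases, and Tmem198b stood at 24.7 to 62.7 TPM.

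The remaining 3 Mmp members, Mmp13, Mmp12 and Mmp3, lie in a cluster of 10 Mmp genes on chromosome 9 (chr9:7272514-7699416, mm10), in the order Mmp13, Mmp12, Mmp1b, Mmp3, Mmp1a, Mmp10, Mmp8, Mmp27, Mmp20 and Mmp7. The other 7 genes of the cluster were not kept: Mmp1a, Mmp20 and Mmp7 were listed at 0 in all 8 libraries, and Mmp10, Mmp27, Mmp8 and Mmp1b peaked at 0.832, 0.692, 0.245 and 0.0726 TPM. Promoters of this cluster are known for sites of AP-1, the dimer of Fos and Jun proteins. In the RefSeq promoter windows of GRCm38.p6, 250 bases before to 50 bases after each start, all 10 genes had an entry and 7 held TGAGTCA or its reverse complement TGACTCA, searched on both strands. The same letters occurred in 5.20% of all 32851 windows of that length (1709) and in 5.95% of the 27025 genes with a window (1607). Of the 30 members 17 had a window, and the 3 with a match were Mmp13, Mmp12 and Mmp3. The motif began 35 bases upstream of the start of Mmp13, 44 upstream of Mmp12 (in 1 of its 2 windows) and 46 upstream of Mmp3. It began 63 upstream of both Mmp10 and Mmp7 (for Mmp7 in 1 of its 2 windows), 73 upstream of Mmp1a and 93 upstream of Mmp1b. A match is a description of these letters and not a measured binding site. The sites are shown because the 3 kept genes, which share the motif, differed in their levels. Each sequence runs 5′ to 3′ on the gene's strand, with the motif in capitals and 30 bases on either side, at chr9:7272449-7272515 for Mmp13, chr9:7347300-7347366 for Mmp12, chr9:7388083-7388149 for Mmp1b (minus strand, the others plus), chr9:7445746-7445812 for Mmp3, chr9:7464038-7464104 for Mmp1a, chr9:7502249-7502315 for Mmp10 and chr9:7691997-7692063 for Mmp7.
Mmp13: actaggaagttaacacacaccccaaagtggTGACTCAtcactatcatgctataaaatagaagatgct
Mmp12: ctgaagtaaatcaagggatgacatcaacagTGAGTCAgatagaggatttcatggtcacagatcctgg
Mmp1b: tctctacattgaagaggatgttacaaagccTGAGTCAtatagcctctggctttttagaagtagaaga
Mmp3: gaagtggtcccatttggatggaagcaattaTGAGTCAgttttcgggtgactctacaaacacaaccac
Mmp1a: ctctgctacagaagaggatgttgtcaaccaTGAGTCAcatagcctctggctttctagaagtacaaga
Mmp10: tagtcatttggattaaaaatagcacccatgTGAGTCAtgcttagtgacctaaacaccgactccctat
Mmp7: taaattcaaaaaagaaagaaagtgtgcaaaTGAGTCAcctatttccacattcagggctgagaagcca

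These 3 genes of the cluster had 3 different profiles. Mmp13 (chr9:7272514-7283333, plus strand), a collagenase, was listed at 6.87 and 7.39 TPM in MGS at day 5 and at 0 in both CV libraries of that day, and at 1.55 and 1.28 TPM in MGS and 0.597 and 0.472 TPM in CV at day 32. It was called higher in MGS at day 5 (limma adjusted p = 2.16e-06), with no fold given against libraries at 0, and by a log2 fold change of 0.65 (SE 0.12, limma adjusted p = 0.00235) at day 32, a call lost after quantile normalization (-0.31, limma adjusted p = 0.084) and with the length and GC correction (limma adjusted p = 0.179). Mmp12 (chr9:7347374-7360461, plus strand), the metalloelastase best known from macrophages, held 7.51 and 8.34 TPM in MGS and 0.602 and 0.481 TPM in CV at day 5. By day 32 Mmp12 stood at 0.955 and 0.979 TPM in MGS and 6.03 and 9.92 TPM in CV. It was high in MGS at day 5 and in CV at day 32, and low in the other 2 groups. Mmp12 had log2 fold changes of 2.53 (SE 0.21, limma adjusted p = 7.06e-05) at day 5 and -2.16 (limma adjusted p = 0.000106) at day 32. Between the days its culture difference changed by -4.69 (SE 0.30, limma adjusted p = 4.78e-05). The microglia and macrophage marker sum was also higher in MGS at day 5 (954 to 977 TPM against 55.1 to 56.1 TPM in CV). It was higher in CV at day 32 (14145 to 15583 TPM against 1211 to 1236 TPM in MGS). Of the 12 markers 10 were then called lower in MGS and 1 higher. Within MGS the sum was higher at day 32 than at day 5, whereas Mmp12 was lower. The part of these cells in the Mmp12 result was not tested. Mmp3 (chr9:7445822-7455974, plus strand), a stromelysin that also activates other proMMPs, held 2.68 and 2.39 TPM in MGS and 5.08 and 6.09 TPM in CV at day 5. By day 32 Mmp3 stood at 1.27 and 0.996 TPM in MGS and 6.60 and 7.52 TPM in CV. It was lower in MGS at both days, and the CV libraries did not overlap the MGS libraries. Mmp3 had log2 fold changes of -0.89 (SE 0.16, limma adjusted p = 0.00279) at day 5 and -1.92 (limma adjusted p = 4.26e-05) at day 32.

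**Figure D3:**
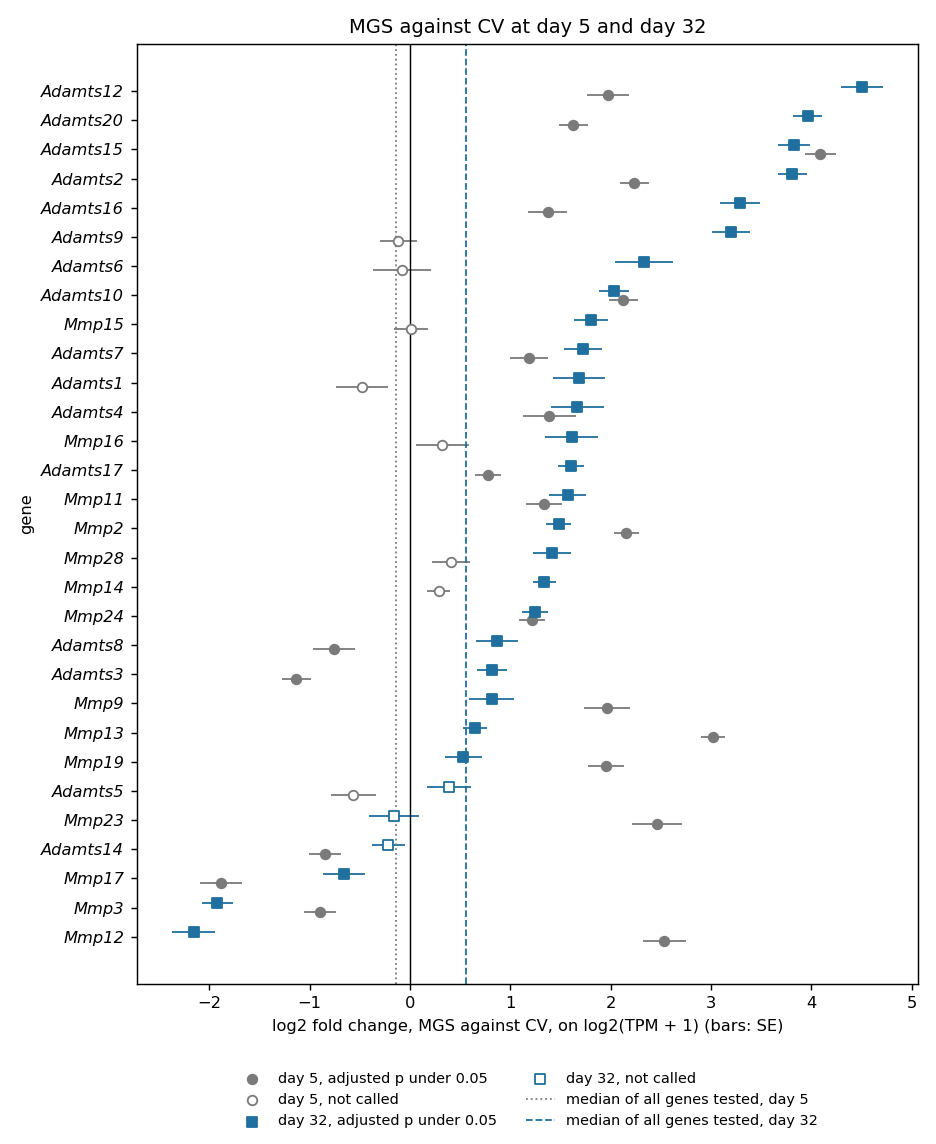
Log2 fold change between MGS and CV for each member at day 5 and at day 32 (points, filled where the adjusted p is under 0.05, with bars of 1 SE on either side), sorted by the day 32 value, with lines at 0 and at the median of all genes tested. Most members lie right of zero at each day, and Mmp12 lies at 2.53 at day 5 and -2.16 at day 32. The day 5 point of Mmp13 is a fitted value against CV libraries listed at 0 and is not a fold change.

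Of the 7 ADAMTS proteases known to cut proteoglycans, 3 were higher in MGS and 1 was lower at day 5, and 6 were higher and none lower at day 32 (5 higher and 1 lower after quantile normalization or the length and GC correction). Adamts1, the most abundant Adamts gene, held 100.3 and 99.4 TPM in MGS and 128 and 152 TPM in CV at day 5. By day 32 Adamts1 stood at 105 and 107 TPM in MGS and 23.5 and 44.3 TPM in CV. CV was above MGS at day 5 and far below it at day 32. Adamts1 had log2 fold changes of -0.48 (SE 0.26, limma adjusted p = 0.163) at day 5 and 1.69 (limma adjusted p = 0.000986) at day 32. Adamts9 (chr6:92772699-92901441, minus strand), a versican- and aggrecan-cutting enzyme that is secreted by many cell types, held 20.1 and 20.5 TPM in MGS and 20.2 and 24.1 TPM in CV at day 5. By day 32 Adamts9 stood at 34.9 and 34.6 TPM in MGS and 2.32 and 3.57 TPM in CV. The cultures overlapped at day 5, and at day 32 the MGS libraries were above all libraries of day 5 and the CV libraries below them. Adamts9 had log2 fold changes of -0.12 (SE 0.19, limma adjusted p = 0.634) at day 5 and 3.20 (limma adjusted p = 8.65e-06) at day 32. Its close relative Adamts20 (chr15:94270163-94404350, minus strand) held 4.28 and 3.65 TPM in MGS and 0.470 and 0.754 TPM in CV at day 5. By day 32 Adamts20 stood at 16.6 and 16.4 TPM in MGS and 0.135 and 0.115 TPM in CV. It exceeded 1 TPM in the 4 MGS libraries and in no CV library. Adamts20 had log2 fold changes of 1.63 (SE 0.15, limma adjusted p = 9.85e-05) at day 5 and 3.96 (limma adjusted p = 1.34e-06) at day 32. Adamts4, an aggrecanase found in the central nervous system, held 11.9 and 11.8 TPM in MGS and 3.76 and 4.08 TPM in CV at day 5. By day 32 Adamts4 stood at 10.53 and 10.1 TPM in MGS and 1.66 and 3.77 TPM in CV, higher in MGS at both days. Adamts4 had log2 fold changes of 1.39 (SE 0.26, limma adjusted p = 0.00386) at day 5 and 1.67 (limma adjusted p = 0.00112) at day 32. The second classical aggrecanase, Adamts5, was the only member called at neither day, and ranged from 4.50 to 9.19 TPM. Adamts5 was called lower in MGS at day 5 with median-of-ratios scaling (-0.39, limma adjusted p = 0.0435) and quantile normalization (-0.61, 0.00237), and at day 32 after quantile normalization (-0.63) and the length and GC correction (-1.17).

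Adamts15 and Adamts8 are neighbours on chromosome 9, transcribed away from each other with 20110 bases between them, and both encode aggrecan-cutting enzymes. Adamts15 (chr9:30899155-30922452, minus strand) held 39.0 and 38.8 TPM in MGS and 1.36 and 1.33 TPM in CV at day 5. By day 32 Adamts15 stood at 20.4 and 21.5 TPM in MGS and 0.400 and 0.715 TPM in CV. At day 5 it had the largest positive fold change among members with no library at 0. Adamts15 had log2 fold changes of 4.09 (SE 0.16, limma adjusted p = 1.94e-06) at day 5 and 3.83 (limma adjusted p = 2.09e-06) at day 32. Adamts8 (chr9:30942563-30962858, plus strand) did not follow it, with 6.81 and 5.38 TPM in MGS and 10.8 and 11.1 TPM in CV at day 5. By day 32 Adamts8 stood at 8.77 and 8.07 TPM in MGS and 3.31 and 5.15 TPM in CV. It was lower in MGS at day 5 and higher at day 32. Adamts8 had log2 fold changes of -0.76 (SE 0.21, limma adjusted p = 0.0203) at day 5 and 0.87 (limma adjusted p = 0.00795) at day 32. The day 5 call of Adamts8 was lost without any one of the 4 libraries of that day (limma adjusted p from 0.0522 to 0.146). Its day 32 call was lost without the first MGS library of day 32 (limma adjusted p = 0.0586), with median-of-ratios scaling (0.0708) and with the length and GC correction (0.266), and the value was -0.13 after quantile normalization. The other adjacent pair, Adamts1 and Adamts5 on chromosome 16, lies on 1 strand with 55041 bases between the genes, and of this pair Adamts1 alone was called at day 32.

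**Figure D4:**
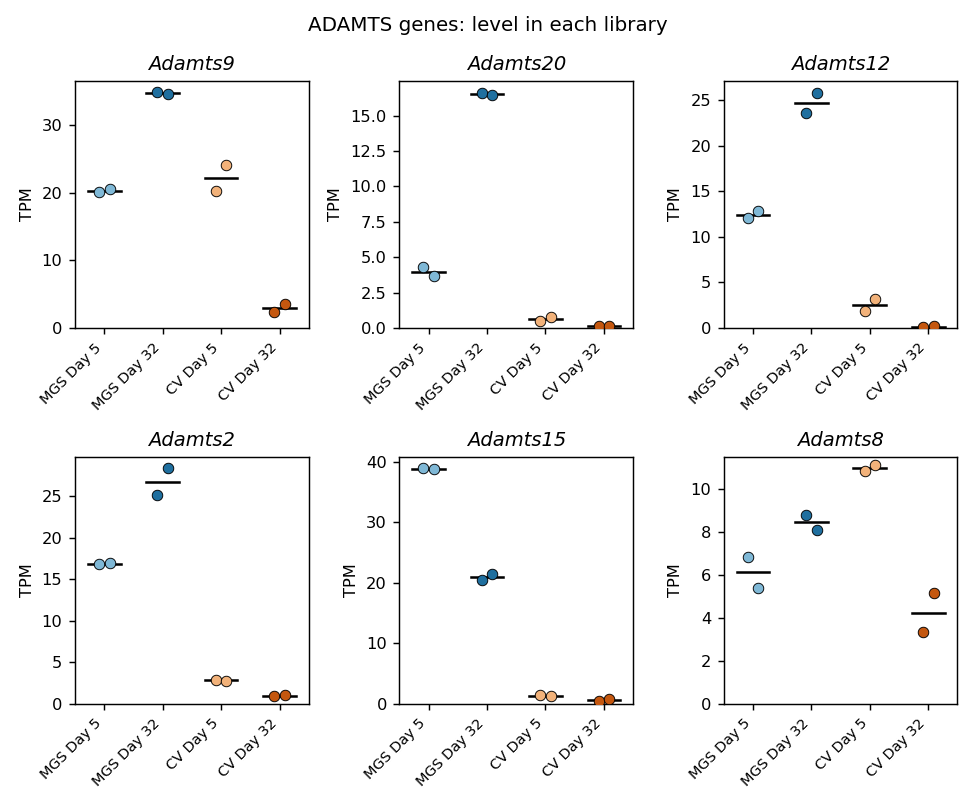
TPM of 6 Adamts members in each library (points) with the mean of the 2 libraries of a group (line), by culture and day. Adamts9 is at 20.1 to 24.1 TPM in both cultures at day 5 and splits into 34.6 and 34.9 TPM in MGS and 2.32 and 3.57 TPM in CV at day 32.

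The 3 procollagen N-proteinases, which remove the amino-terminal propeptide of fibrillar procollagens, split at day 5 into 1 higher and 2 lower. Adamts2 (chr11:50602085-50804049, plus strand) held 16.9 and 16.9 TPM in MGS and 2.82 and 2.77 TPM in CV at day 5. By day 32 Adamts2 stood at 25.1 and 28.4 TPM in MGS and 0.952 and 1.00 TPM in CV. All 4 MGS libraries were above all 4 CV libraries. Adamts2 had log2 fold changes of 2.24 (SE 0.15, limma adjusted p = 2e-05) at day 5 and 3.81 (limma adjusted p = 1.49e-06) at day 32. The meningeal fibroblast markers, which include the collagen genes Col1a1 and Col3a1, were also higher in MGS, 10 of 10 at day 5 and 9 of 10 at day 32, when Twist1 was lower, with sums of 5775 to 5927 TPM against 330.3 to 351 TPM at day 5 and 3257 to 3299 TPM against 326 to 493 TPM at day 32. In MGS the marker sum was lower at day 32 than at day 5, whereas Adamts2 was higher. In CV the sums of the 2 days overlapped, whereas Adamts2 was lower at day 32. Oligodendrocyte, endothelial, mural, and ependymal and choroid plexus sums were higher in MGS too. The part of any of these cell types in the Adamts2 result was not tested. Adamts3, which also takes part in the activation of the lymphatic growth factor Vegfc, held 0.793 and 0.852 TPM in MGS and 2.56 and 3.48 TPM in CV at day 5. By day 32 Adamts3 stood at 1.32 and 1.12 TPM in MGS and 0.188 and 0.335 TPM in CV. CV libraries were higher at day 5 and lower at day 32. Adamts3 had log2 fold changes of -1.13 (SE 0.15, limma adjusted p = 0.000601) at day 5 and 0.82 (limma adjusted p = 0.00203) at day 32. Its day 32 call was lost with the length and GC correction (limma adjusted p = 0.488) and after quantile normalization, where the value was -0.093 (limma adjusted p = 0.49). Adamts14 held 5.30 and 5.66 TPM in MGS and 10.6 and 10.7 TPM in CV at day 5. By day 32 Adamts14 stood at 6.98 and 7.59 TPM in MGS and 7.68 and 9.66 TPM in CV. Adamts14 had log2 fold changes of -0.85 (SE 0.16, limma adjusted p = 0.00413) at day 5 and -0.22 (limma adjusted p = 0.267) at day 32. The day 32 difference of Adamts14, not called in TPM, was called lower in MGS in FPKM and after the 3 other scalings.

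The other 6 ADAMTS members were higher in MGS in 5 cases at day 5 and in all 6 at day 32, and none was lower. Adamts12 (chr15:11064790-11346867, plus strand), which cuts cartilage oligomeric matrix protein, held 12.1 and 12.8 TPM in MGS and 1.82 and 3.16 TPM in CV at day 5. By day 32 Adamts12 stood at 23.6 and 25.8 TPM in MGS and 0.0693 and 0.197 TPM in CV. At day 32 the MGS libraries were about level with each other and the CV libraries were near 0. Adamts12 had log2 fold changes of 1.97 (SE 0.21, limma adjusted p = 0.000215) at day 5 and 4.50 (limma adjusted p = 3.16e-06) at day 32, the largest fold change of any member at that day. Adamts7, which shares that substrate, held 15.8 and 15.7 TPM in MGS and 6.35 and 6.35 TPM in CV at day 5. By day 32 Adamts7 stood at 12.7 and 13.7 TPM in MGS and 2.64 and 4.06 TPM in CV. Adamts7 had log2 fold changes of 1.19 (SE 0.19, limma adjusted p = 0.00164) at day 5 and 1.72 (limma adjusted p = 0.000176) at day 32. Adamts10, a microfibril-associated member, held 56.7 and 56.8 TPM in MGS and 12.5 and 11.98 TPM in CV at day 5. By day 32 Adamts10 stood at 76.4 and 82.7 TPM in MGS and 16.5 and 21.2 TPM in CV. The cultures were about equally far apart at both days. Adamts10 had log2 fold changes of 2.13 (SE 0.14, limma adjusted p = 2.54e-05) at day 5 and 2.03 (limma adjusted p = 2.11e-05) at day 32. Its relative Adamts6 held 1.71 and 2.07 TPM in MGS and 1.59 and 2.58 TPM in CV at day 5. By day 32 Adamts6 stood at 6.82 and 6.74 TPM in MGS and 0.141 and 1.08 TPM in CV. The cultures overlapped at day 5. Adamts6 had log2 fold changes of -0.079 (SE 0.29, limma adjusted p = 0.834) at day 5 and 2.33 (limma adjusted p = 0.000329) at day 32. Adamts16 held 7.650 and 6.91 TPM in MGS and 1.65 and 2.86 TPM in CV at day 5. By day 32 Adamts16 stood at 13.2 and 13.1 TPM in MGS and 0.398 and 0.498 TPM in CV. Adamts16 had log2 fold changes of 1.37 (SE 0.20, limma adjusted p = 0.00105) at day 5 and 3.29 (limma adjusted p = 9.77e-06) at day 32. Adamts17, another microfibril-associated member, held 1.497 and 1.68 TPM in MGS and 0.625 and 0.404 TPM in CV at day 5. By day 32 Adamts17 stood at 2.54 and 2.48 TPM in MGS and 0.241 and 0.0701 TPM in CV. Adamts17 had log2 fold changes of 0.78 (SE 0.13, limma adjusted p = 0.00219) at day 5 and 1.61 (limma adjusted p = 3.91e-05) at day 32, and the latter was no longer called after the length and GC correction (limma adjusted p = 0.19).

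Read by day, 15 members were higher in MGS at both days, Mmp17 and Mmp3 were lower at both, Adamts3 and Adamts8 went from lower to higher, and Mmp12 from higher to lower. A further 7 (Adamts1, Adamts6, Adamts9, Mmp14, Mmp15, Mmp16 and Mmp28) were called higher at day 32 but not called at day 5. Of all genes tested 22.5% were called higher at day 5 and 52.8% at day 32. The share of all genes with each of these pairs of calls is not given here, so the counts describe the members only. Calling a gene at 1 day only does not show that the days differ, so the difference itself was tested. The culture difference was larger (more positive) at day 32 for 17 members and smaller (less positive or more negative) for 7. Of all genes 62% were called, 49.7% larger and 12.3% smaller. In TPM all 12 called Adamts members were larger at day 32, whereas the 14 Mmp members split into 5 larger and 7 smaller, and over the 4 other scalings 9 to 15 members in all were larger and 9 to 13 smaller. Of these 24 calls 14 held in TPM and in each of the 4 other scalings. The larger ones among them were Adamts1, Adamts16, Adamts3, Adamts6, Adamts8, Adamts9 and Mmp15, and the smaller ones Mmp12, Mmp13, Mmp19, Mmp2, Mmp23, Mmp3 and Mmp9. Mmp3 counts as smaller because its difference became more negative, from -0.89 to -1.92. Among the 17, Mmp17 and Adamts14 count as larger because theirs became less negative, from -1.88 to -0.66 and from -0.85 to -0.22. Adamts5, called at neither day, went from -0.56 to 0.39. For Mmp9 the ratio of mean TPM between the cultures was 9.46 at day 5 and 7.62 at day 32. Its day 32 levels were below 1 TPM, and all of these scalings keep the pseudocount of 1. Adamts9 had a difference between the days of 3.31 (SE 0.27, limma adjusted p = 0.000113), Adamts1 one of 2.16 (SE 0.36, limma adjusted p = 0.00239), and Adamts6 one of 2.41 (SE 0.41, limma adjusted p = 0.00236).

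Within a culture, time moved the members in different directions. In MGS 12 members rose and 7 fell between day 5 and day 32, where 42.5% of all genes were called, 35% rose and 7.53% fell, but 6 rose and 12 fell after median-of-ratios scaling. In CV 6 rose and 16 fell, where 53.7% of all genes were called, 16% rose and 37.7% fell, and 9 to 15 fell in the 4 other scalings. In MGS 10 of the 19 calls and in CV 14 of the 22 held in all of these scalings. Leaving out 1 library cannot decide how firm these counts are, because the group left with 1 library takes its spread from the others. Only the size of the changes is compared here. In MGS the middle gene of all those tested rose by 0.365 (log2) in the full fit. Without any one of the 4 MGS libraries this value was 0.355 to 0.365. In CV it was -0.307 in the full fit. It ran from -0.455 without the second CV library of day 32 to -0.161 without the first. A set of 8 members (Adamts12, Adamts16, Adamts17, Adamts2, Adamts20, Adamts6, Adamts9 and Mmp15) rose in MGS and fell in CV in TPM. The share of all genes that did both is not given here. After the length and GC correction Adamts12, Adamts17, Adamts2 and Adamts9 were below 0 in MGS and Adamts17 and Adamts20 above 0 in CV. Adamts20 had the largest rise in MGS, with a log2 fold change of 1.82 (SE 0.15, limma adjusted p = 0.0002), followed by Adamts6 at 1.43 (SE 0.29, limma adjusted p = 0.00765). Mmp12 fell in MGS by 2.18 on the log2 scale (SE 0.21, limma adjusted p = 0.00041) and Mmp9 by 1.51 (SE 0.23, limma adjusted p = 0.00238). In CV the log2 fold change was -2.57 (SE 0.19, limma adjusted p = 4.85e-05) for Adamts9, -2.07 (SE 0.26, limma adjusted p = 0.000642) for Adamts1 and -1.50 (SE 0.11, limma adjusted p = 5.79e-05) for Mmp14. Mmp12, Mmp19 and Mmp23 rose in CV, with log2 fold changes of 2.51 (SE 0.21, limma adjusted p = 9.87e-05), 1.97 (SE 0.18, limma adjusted p = 0.000144) and 1.72 (SE 0.25, limma adjusted p = 0.00132).

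Of the 5 inhibitors, namely the 4 TIMPs and Reck, a membrane-anchored inhibitor, MGS had 2 higher and 3 lower at day 5, and 2 were higher and 1 lower at day 32 (2 higher and 2 lower in FPKM and with median-of-ratios scaling, 2 higher and 3 lower after the length and GC correction). Over all genes tested, 22.5% were called higher and 26.4% lower at day 5, and 52.8% higher and 14.8% lower at day 32. Timp1, an inducible TIMP, held 112 and 106 TPM in MGS and 64.0 and 63.7 TPM in CV at day 5. By day 32 Timp1 stood at 26.5 and 22.7 TPM in MGS and 174 and 137 TPM in CV. It was higher in MGS at day 5 and far lower at day 32. Timp1 had log2 fold changes of 0.76 (SE 0.14, limma adjusted p = 0.0037) at day 5 and -2.61 (limma adjusted p = 6.21e-06) at day 32. Timp2, which also joins Mmp14 in the activation of proMmp2, held 473 and 479.8 TPM in MGS and 713 and 802 TPM in CV at day 5. By day 32 Timp2 stood at 605 and 626 TPM in MGS and 538 and 752 TPM in CV. It was the most abundant TIMP in every library. Timp2 had log2 fold changes of -0.67 (SE 0.16, limma adjusted p = 0.0107) at day 5 and -0.048 (limma adjusted p = 0.798) at day 32, and the day 5 call was lost without either MGS library or the second CV library of that day (limma adjusted p from 0.0616 to 0.0714). At day 32 Timp2 was called lower in MGS in FPKM (-0.43, limma adjusted p = 0.0132), with median-of-ratios scaling (-0.68, 0.0016), after the length and GC correction (-0.69, 0.000245) and without the first CV library of that day (-0.29, 0.028). Timp3, the matrix-bound TIMP that also inhibits aggrecanases, held 124 and 129 TPM in MGS and 199 and 279 TPM in CV at day 5. By day 32 Timp3 stood at 285 and 279.5 TPM in MGS and 166 and 299 TPM in CV. Timp3 had log2 fold changes of -0.89 (SE 0.27, limma adjusted p = 0.0285) at day 5 and 0.34 (limma adjusted p = 0.286) at day 32. The day 5 call of Timp3 was lost without any one of 5 libraries, the second CV library of day 5 and the 4 MGS libraries (limma adjusted p from 0.0539 to 0.173), and its day 32 value was -0.58 after the length and GC correction. Timp4, a TIMP expressed in brain, held 33.3 and 31.1 TPM in MGS and 85.6 and 88.0 TPM in CV at day 5. By day 32 Timp4 stood at 87.2 and 81.0 TPM in MGS and 22.2 and 16.5 TPM in CV. It was lower in MGS at day 5 and higher at day 32, the reverse of Timp1. Timp4 had log2 fold changes of -1.40 (SE 0.15, limma adjusted p = 0.000239) at day 5 and 2.08 (limma adjusted p = 2.29e-05) at day 32. Reck held 11.8 and 11.1 TPM in MGS and 5.77 and 6.74 TPM in CV at day 5. By day 32 Reck stood at 21.3 and 23.7 TPM in MGS and 4.40 and 8.49 TPM in CV. Reck had log2 fold changes of 0.79 (SE 0.26, limma adjusted p = 0.0406) at day 5 and 1.71 (limma adjusted p = 0.000974) at day 32, and the day 5 call was lost without any one of the 4 libraries of day 5 or the 2 MGS libraries of day 32, and when genes of all levels were tested.

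**Figure D5:**
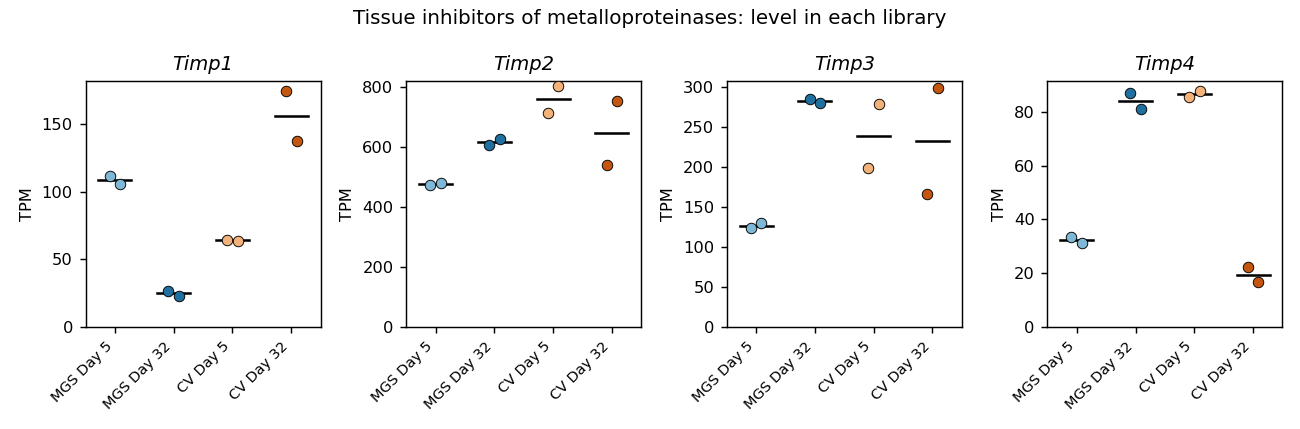
TPM of Timp1 to Timp4 in each library (points) with the mean of the 2 libraries of a group (line), by culture and day. Timp1 is at 26.5 and 22.7 TPM in MGS and 174 and 137 TPM in CV at day 32, and Timp4 at 87.2 and 81.0 TPM against 22.2 and 16.5 TPM.

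Around the enzymes, the plasminogen activator system, whose product plasmin can activate proMMPs, had 1 of 8 tested genes higher and 4 lower in MGS at day 5, and 3 higher and 3 lower at day 32 (2 higher and 6 lower after quantile normalization). Beside this and the next lists, 22.5% of all genes were called higher and 26.4% lower at day 5. At day 32 these shares were 52.8% and 14.8%. Plaur, the urokinase receptor, held 7.90 and 7.83 TPM in MGS and 42.3 and 34.7 TPM in CV at day 5. By day 32 Plaur stood at 4.63 and 3.80 TPM in MGS and 30.4 and 33.0 TPM in CV. Plaur had log2 fold changes of -2.15 (SE 0.16, limma adjusted p = 4.27e-05) at day 5 and -2.65 (limma adjusted p = 1.1e-05) at day 32. Of 8 genes, namely proprotein convertases, Bsg and secreted proteoglycans of the Spock family, 3 were higher and 2 lower at day 5. At day 32, 5 were higher and none lower, or 3 higher and 3 lower after quantile normalization. Pcsk5, a proprotein convertase, had a log2 fold change of 2.41 (SE 0.19, limma adjusted p = 3.68e-05) at day 32, when Spock2, a secreted proteoglycan, had one of 2.55 (SE 0.21, limma adjusted p = 3.92e-05). Of the 10 ADAM proteases, the membrane-bound relatives of the ADAMTS family, 3 were higher and 3 lower at day 5, and 6 were higher and 2 lower at day 32, or 3 and 3 after the length and GC correction. Adam8, which myeloid cells express, had means of 22.0 TPM in MGS and 3.34 TPM in CV at day 5 (n = 2 libraries each), and of 13.3 and 253 TPM at day 32. It was highest in CV at day 32, as the microglia and macrophage marker sum was (14145 to 15583 TPM), whose part was not tested. Adam8 had log2 fold changes of 2.41 (SE 0.18, limma adjusted p = 3.86e-05) at day 5 and -4.13 (limma adjusted p = 2.51e-06) at day 32. Adam12, a disintegrin protease of mesenchymal cells, had a log2 fold change of 3.11 (SE 0.25, limma adjusted p = 3.83e-05) at day 32.

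The ADAMTS-like proteins, which lack the protease domain, were higher in 2 and lower in 3 of 5 cases at day 5, and higher in 4 and lower in none at day 32, a direction that was lost after quantile normalization (1 higher, 1 lower) and the length and GC correction (0 higher, 2 lower). Adamtsl1 had a log2 fold change of 1.60 (SE 0.22, limma adjusted p = 0.000623) at day 32, not called after the length and GC correction, and Adamtsl3 one of -1.92 (SE 0.28, limma adjusted p = 0.00122) at day 5. Of 4 procollagen-processing genes of the astacin group and their enhancers, 2 were higher and 1 lower at day 5, and 3 were higher and none lower at day 32, or 0 higher and 1 lower after the length and GC correction. Pcolce, the enhancer of the procollagen C-proteinase, stood at 359 and 351 TPM in MGS and 49.5 and 46.2 TPM in CV at day 5, a log2 fold change of 2.87 (SE 0.094, limma adjusted p = 1.11e-06). Of 5 genes of the endocytic clearance of proteases, inhibitors or cut collagen, 1 was higher and 2 lower at day 5, and 3 were higher and none lower at day 32, or 2 higher and 3 lower after the length and GC correction. With 52.8% of all genes tested called higher at day 32, a count of 3 among 5 is close to the share over all genes. Mrc2, an endocytic collagen receptor, held 127 and 131 TPM in MGS and 13.4 and 11.7 TPM in CV at day 5. By day 32 Mrc2 stood at 114 and 122 TPM in MGS and 14.6 and 21.3 TPM in CV. Mrc2 had log2 fold changes of 3.27 (SE 0.18, limma adjusted p = 9.2e-06) at day 5 and 2.68 (limma adjusted p = 1.53e-05) at day 32. Lrp2, or megalin, had a log2 fold change of -4.79 (SE 0.24, limma adjusted p = 6.48e-06) at day 5.

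The list of lecticans, which are substrates of the aggrecanases, of link proteins and of tenascin-R had 1 of 8 tested genes higher and 3 lower in MGS at day 5. At day 32, 7 were higher and none lower (6 or 7 higher and none lower in the 4 other scalings). Over all genes tested, 22.5% were called higher and 26.4% lower at day 5, and 52.8% and 14.8% at day 32. Ncan, encoding neurocan, held 206 and 209 TPM in MGS and 464 and 529 TPM in CV at day 5. By day 32 Ncan stood at 325 and 340.4 TPM in MGS and 22.5 and 31.3 TPM in CV. Ncan had log2 fold changes of -1.25 (SE 0.16, limma adjusted p = 0.000504) at day 5 and 3.60 (limma adjusted p = 2.51e-06) at day 32. Vcan, encoding versican, held 21.4 and 19.6 TPM in MGS and 12.8 and 12.7 TPM in CV at day 5. By day 32 Vcan stood at 48.8 and 51.3 TPM in MGS and 2.63 and 3.92 TPM in CV. Vcan had log2 fold changes of 0.65 (SE 0.18, limma adjusted p = 0.0196) at day 5 and 3.59 (limma adjusted p = 4.05e-06) at day 32, the day 5 call being lost without any one of 6 libraries, the 4 of day 5 and both MGS libraries of day 32. Acan, encoding aggrecan, was at 10.8 and 11.7 TPM in MGS at day 32 and listed at 0 in both CV libraries of that day (limma adjusted p = 8.52e-07), and stayed below 1 TPM at day 5. Tnr, encoding tenascin-R, which binds lecticans, stood at 70.0 and 79.7 TPM in MGS and 0.0958 and 0.255 TPM in CV at day 32, a log2 fold change of 6.01 (SE 0.20, limma adjusted p = 1.03e-06).

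Of 9 AP-1 genes MGS had 7 higher and 1 lower at each day, and 5 or 6 were higher and 1 or 2 lower at day 32 in the 4 other scalings. The shares over all genes tested were 22.5% higher and 26.4% lower at day 5, and 52.8% and 14.8% at day 32. Fos held 1750.2 and 1721 TPM in MGS and 114 and 131 TPM in CV at day 5. By day 32 Fos stood at 1549 and 1623 TPM in MGS and 262 and 412 TPM in CV. Fos had log2 fold changes of 3.81 (SE 0.20, limma adjusted p = 7.13e-06) at day 5 and 2.27 (limma adjusted p = 5.59e-05) at day 32. Fosb, a Fos relative, held 135 and 123 TPM in MGS and 2.997 and 2.87 TPM in CV at day 5. By day 32 Fosb stood at 135 and 150.2 TPM in MGS and 12.4 and 22.4 TPM in CV. Fosb had log2 fold changes of 5.05 (SE 0.24, limma adjusted p = 5.24e-06) at day 5 and 3.02 (limma adjusted p = 3.84e-05) at day 32. Junb held 1092 and 981 TPM in MGS and 93.2 and 80.4 TPM in CV at day 5. By day 32 Junb stood at 676 and 791 TPM in MGS and 324 and 339 TPM in CV. Junb had log2 fold changes of 3.56 (SE 0.12, limma adjusted p = 1.22e-06) at day 5 and 1.14 (limma adjusted p = 0.000169) at day 32. Fosl1, also a Fos relative, was the 1 lower gene, with 3.59 and 3.12 TPM in MGS and 38.6 and 40.1 TPM in CV at day 5. By day 32 Fosl1 stood at 3.08 and 2.88 TPM in MGS and 8.67 and 9.38 TPM in CV. Fosl1 had log2 fold changes of -3.21 (SE 0.15, limma adjusted p = 4.3e-06) at day 5 and -1.33 (limma adjusted p = 0.0002) at day 32. Of the 3 members with the motif letters near their start, Mmp13 was called higher in MGS at both days, Mmp12 higher at day 5 and lower at day 32, and Mmp3 lower at both.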

How the data were processed

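Total RNA of 8 mouse astrocyte samples, extracted with TRIzol and made into directional libraries, was sequenced on an Illumina NextSeq, per the labels' protocols. The submitters' processing notes name bcl2fastq, HISAT2 2.1.0, StringTie 1.3.4d and the builds hg38 and mm10 without saying which build served which step; all 42 genes with a matching symbol overlapped the RefSeq GRCm38 gene of the same name. The annotation and the use of strand in counting are not given in the sources used here. For each library the authors deposited TPM, FPKM and coverage per gene, per the file headers, and for the series a table of TPM. Coverage, a deposited signal, was used only to estimate the aligned bases of a library. Rows that share a gene ID were summed. No read counts were used.

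The main values are log2(TPM + 1) of the 14904 gene IDs with at least 1 TPM in at least 2 libraries. The 4 group means were fitted to all 8 libraries with limma 3.58.1 (R 4.3.3) with a variance trend, leaving 4 residual degrees of freedom, and p-values were two-sided and adjusted by Benjamini-Hochberg over all genes, called under 0.05. Fold changes on this scale understate the change of genes near the pseudocount of 1. The code was tested on simulated data. Alternatives were FPKM, the series table, a pseudocount of 0.1, no filter on level, median-of-ratios scaling, quantile normalization, a correction for length and GC content (99.2% of genes had both), a replicate block, no variance trend and leaving out each library.

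The members and gene lists were chosen with earlier results of these data known. Every kept member is named; those called between the cultures at either day or with a group mean of at least 10 TPM are given in every library, and of each pathway list at most 4 called genes with the largest fold change are named, besides the 4 TIMPs. A gene of the plasminogen activator list is not reported here by itself.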

Additional observations from a re-analysis of the deposited data

Results flagged for a closer look

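In 3 members the culture difference had opposite signs at the 2 days, with a call at each day and a test of the difference itself that passed. Mmp12, the metalloelastase, had a log2 fold change between MGS and CV of 2.53 at day 5 and -2.16 at day 32, a difference of -4.69 (limma adjusted p = 4.78e-05), and this held under every alternative run. Adamts3, a procollagen N-proteinase, went from -1.13 to 0.82, a difference of 1.95 (limma adjusted p = 0.000353). Mmp12 passed the level rule only through MGS at day 5 and CV at day 32, and Adamts3 only through CV at day 5 and MGS at day 32. Those are the groups where each was high, so for both genes the change of sign is not independent of the rule. Adamts8, an aggrecan-cutting enzyme, went from -0.76 to 0.87, a difference of 1.63 (limma adjusted p = 0.00322). The day 32 values of Adamts3 and Adamts8 were -0.093 and -0.13 after quantile normalization, so that for these genes the change of sign depends on the scaling.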

How the results depend on the processing

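Counts of members higher or lower in MGS at day 5 stayed within 1.5 times under all alternatives, and those higher at day 32 as well. Members lower at day 32, 3 in TPM, were 6 after quantile normalization and 5 after the length and GC correction, with or without a replicate block. Members that rose in MGS, 12 in TPM, were 7 with a pseudocount of 0.1, 6 with median-of-ratios scaling, 6 with quantile normalization and 4 with the length and GC correction, with or without the block, and members that fell, 7 in TPM, were 12, 11 and 13 under the latter 3. Members that fell in CV, 16 in TPM, were 9 after the length and GC correction and 10 with the block added. Members whose culture difference was larger (more positive) at day 32, 17 in TPM, were 11 with median-of-ratios scaling, 11 with quantile normalization and 9 with the length and GC correction. Those whose difference was smaller (less positive or more negative), 7 in TPM, were 13 after quantile normalization and 13 after the length and GC correction, with or without the block. The cause of these shifts was not tested. Leaving out 1 library at a time gave 17 to 19 members higher and 4 to 7 lower at day 5, 21 to 25 higher and 2 to 4 lower at day 32, 1 to 15 rising and 3 to 8 falling in MGS, 5 to 6 rising and 10 to 19 falling in CV, and 12 to 20 larger and 5 to 7 smaller between the days. A group left with 1 library was assumed to vary like the others, so the number of calls also depends on which spread remains.

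Differences of single genes that turned sign and were called in TPM, under the alternative or in both were as follows (log2). Sign changes of differences called in neither are not listed, such as those of Adamts9 at day 5 and Timp3 at day 32 in FPKM. After the length and GC correction, with or without the block, these were at day 5 Adamts6 0.43 and Adamts9 0.23. At day 32 they were Adamts5 -1.17, Mmp19 -0.092, Adamtsl3 -0.62, Bmp1 -0.16, Lrp1 -0.55, Pcolce -0.10, Pcolce2 -0.18 and Timp3 -0.58. Over time in MGS they were Adamts1 -0.48, Adamts12 -0.088, Adamts17 -0.21, Adamts2 -0.098, Adamts5 -0.66 and Adamts9 -0.17. Over time in CV they were Adamts14 0.31, Adamts15 0.032, Adamts17 0.29, Adamts20 0.31 and Adamts5 0.51. Between the days they were Adamts14 -0.35, Adamts17 -0.50, Adamts5 -1.17, Adamts7 -0.49, Mmp17 -0.071 and Mmp24 -0.63. After quantile normalization they were at day 32 Adamts3 -0.093, Adamts5 -0.63, Adamts8 -0.13, Mmp13 -0.31, Mmp19 -0.23, Mmp9 -0.038, Pcolce2 -0.36 and Spock3 -0.10, over time in MGS Adamts17 -0.011, and between the days Adamts14 -0.37, Adamts4 -0.58, Adamts5 -0.014, Adamts7 -0.41, Mmp11 -0.55 and Mmp24 -0.47. After median-of-ratios scaling they were Mmp19 -0.068, Bsg -0.0266 and Pcolce -0.30 at day 32, Mmp2 -0.38 over time in MGS, and Adamts14 -0.10 and Mmp11 -0.56 between the days. In FPKM Pcolce was -0.0536 at day 32.

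The libraries share only a replicate number: the correlations of the differences between replicates of 2 groups ran from -0.131 to 0.444. With the replicate block 17 members were higher and 6 lower at day 5, 24 and 3 at day 32, 12 rose and 7 fell in MGS, and 6 rose and 17 fell in CV. No read counts were used, so the depth behind single values is unknown.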

Other observations

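Of the 12 genes with a matching symbol that were not kept, Adamts13, Mmp1a, Mmp20, Mmp21 and Mmp7 were listed at 0 in all 8 libraries. The others peaked below 1 TPM: Adamts18 at 0.906 TPM, Mmp10 at 0.832 TPM, Mmp27 at 0.692 TPM, Mmp25 at 0.293 TPM, Mmp8 at 0.245 TPM, Adamts19 at 0.114 TPM and Mmp1b at 0.0726 TPM. The nearest kept member was Mmp9, which reached 1 TPM in 2 libraries, both of MGS at day 5.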
